A study of Mus musculus with 2 samples.

Results

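The 8 genes described here are the apelin and adrenomedullin ligands, their receptors, and a pair of markers of endothelial tip cells: Apln, Adm, Aplnr, Calcrl, Ramp2, Ramp3, Esm1 and Kcne3. They were found by symbol, and each matched 1 of the 31253 genes in both count tables. Tip cells lead a growing vessel sprout, and in the mouse retina they are enriched in Apln, Esm1, Kcne3, Adm and Ramp3. Apln encodes the secreted peptide apelin, which binds the G protein-coupled receptor encoded by Aplnr, and this pair guides the width and direction of new vessels. Adm encodes the peptide adrenomedullin, which acts through the Calcrl receptor once a receptor activity-modifying protein, Ramp2 or Ramp3, has carried it to the cell surface. Mouse embryos that lack Adm, Calcrl or Ramp2 die before birth with oedema.

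The study profiled single cells of E12.5 mouse brain after enrichment with magnetic beads against CD31, the protein of the endothelial gene Pecam1. Its title places the endothelial forkhead transcription factor FOXQ1 in vessel growth and in the formation of the blood-brain barrier. There was 1 library of Foxq1iECKO brains and 1 library of Foxq1flox/flox brains. Foxq1flox/flox marks brains whose Foxq1 alleles are flanked by recombination sites. The Cre driver, the time of any induction, the number of embryos in each library and the presence of Cre in the Foxq1flox/flox embryos are not stated in the labels. With 1 library per genotype, no difference between genotypes has a replicate check, and a difference between libraries cannot be told apart from a difference between the embryos or preparations.

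The Foxq1iECKO library held 15108 barcodes and 72445925 unique molecular identifiers (UMIs, each standing for 1 captured RNA molecule). The Foxq1flox/flox library held 15837 barcodes and 76580165 UMIs. Median depth per barcode was 3660 UMIs in the Foxq1iECKO library and 3836 UMIs in the Foxq1flox/flox library, and 270 barcode sequences occurred in both. After filtering, 12592 Foxq1iECKO cells and 13399 Foxq1flox/flox cells remained. They formed 22 clusters that were named from markers, with the 8 genes left out of the clustering. Endothelial-like cells made up 13.0% of the Foxq1iECKO library (1637 cells) and 18.05% of the Foxq1flox/flox library (2418 cells), so most cells of both libraries were of other types. A further cluster of 894 Foxq1iECKO cells and 503 Foxq1flox/flox cells expressed endothelial and pericyte genes together and was kept apart. Its median depth was 8802.5 UMIs in the Foxq1iECKO library and 9376 UMIs in the Foxq1flox/flox library, above that of endothelial-like cells (4144 UMIs in the Foxq1iECKO library and 4471 UMIs in the Foxq1flox/flox library). Summed counts per 1000000 UMIs (CPM) of the 16 endothelial markers were 7506 in Foxq1iECKO and 8307 in Foxq1flox/flox endothelial-like cells. In the same cells Foxq1, the targeted gene, stood at 143 CPM [136, 150.2] in the Foxq1iECKO library and 431 CPM [421, 441] in the Foxq1flox/flox library. Foxq1 was higher in pericyte-like cells, at 531 CPM [491, 573] in the Foxq1iECKO library and 620 CPM [576, 666] in the Foxq1flox/flox library. Values in brackets, here and below, are 95% intervals that cover counting error only. In endothelial-like cells Xist, which is expressed from the inactive X chromosome of female cells, was also unequal, at 250.2 CPM in the Foxq1iECKO library and 359 CPM in the Foxq1flox/flox library. The labels do not state the sex of the embryos, and the part of this in the values of Apln, which lies on the X chromosome, was not tested.

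In the mm10 genome Apln occupies chromosome X from 48025146 to 48034853 on the minus strand and Aplnr chromosome 2 from 85136225 to 85139923 on the plus strand. Adm is at chromosome 7 from 110627661 to 110629820 (plus strand) and Calcrl at chromosome 2 from 84330626 to 84425411 (minus strand). Ramp2 (chromosome 11 from 101246028 to 101259546) and Ramp3 (chromosome 11 from 6658521 to 6677475) are both on the plus strand. The tip cell markers Esm1 (chromosome 13 from 113209659 to 113218098) and Kcne3 (chromosome 7 from 100176502 to 100184869) are also on the plus strand. Exons of Ramp2 overlap those of Vps25 on the same strand, and exons of Kcne3 overlap those of the antisense gene Gm34821. The strand setting of the counting is not stated in the labels, so a few reads of these overlaps could be assigned to either gene. Endothelial-like cells held 12 UMIs in the Foxq1iECKO library and 16 UMIs in the Foxq1flox/flox library of Vps25 and 14 UMIs in the Foxq1iECKO library and 14 UMIs in the Foxq1flox/flox library of Gm34821.

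Because Foxq1 encodes a forkhead factor and the apelin and adrenomedullin ligands are known targets of low oxygen, the promoter windows were searched for 3 short motifs on both strands. The motifs were the forkhead core TGTTTA, the hypoxia response core ACGTG and the core GGAA of ETS factors, a family that drives many endothelial promoters. RefSeq windows were at hand for 6 of the 8 genes, and not for Aplnr and Ramp2. The 250 bases upstream of the start (RefSeq, GRCm38.p6) are shown for Esm1, whose level differed most between the genotypes in barrier-like cells, and for both ligands. Each reads 5′ to 3′ along the gene's own strand, and capitals mark the forkhead and ETS cores. The windows are chr13:113209409-113209658 on the plus strand for Esm1, chrX:48034854-48035103 on the minus strand for Apln and chr7:110627407-110627656 on the plus strand for Adm.
Esm1: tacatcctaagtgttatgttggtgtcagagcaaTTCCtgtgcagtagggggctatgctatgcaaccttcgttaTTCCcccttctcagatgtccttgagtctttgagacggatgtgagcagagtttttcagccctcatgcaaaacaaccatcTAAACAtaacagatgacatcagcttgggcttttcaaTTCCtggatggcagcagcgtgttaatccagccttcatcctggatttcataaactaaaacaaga
Apln: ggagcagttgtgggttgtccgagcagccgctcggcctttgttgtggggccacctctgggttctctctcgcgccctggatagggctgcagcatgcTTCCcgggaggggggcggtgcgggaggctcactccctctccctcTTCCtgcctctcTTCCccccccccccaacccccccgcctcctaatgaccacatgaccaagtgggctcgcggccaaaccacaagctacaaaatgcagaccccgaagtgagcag
Adm: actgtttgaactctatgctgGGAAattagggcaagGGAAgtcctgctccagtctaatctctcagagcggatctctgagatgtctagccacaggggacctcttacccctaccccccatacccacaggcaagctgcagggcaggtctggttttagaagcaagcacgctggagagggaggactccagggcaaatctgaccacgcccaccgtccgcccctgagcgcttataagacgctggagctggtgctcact
The Esm1 window held 1 forkhead core, read on the opposite strand as TAAACA and starting 99 bases upstream of the start. No other searched window of the 8 genes held this core, which occurred in 12.03% of 32851 mouse promoter windows of the same length. ETS cores occurred 3 times in the Esm1 window, 3 times in that of Apln and 2 times in that of Adm, but 93.4% of all windows hold at least 1. The hypoxia core was found in 1 of the 2 windows of Kcne3 and in none of the other genes searched, against 16.6% of all windows. It lay 140 bases upstream of the RefSeq start of that window (chr7:100176420-100176669). This start lies inside Kcne3 at the position given above, and the window overlaps the gene. A match describes letters and is not a binding site.

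Among the cell classes, Apln, Aplnr, Adm, Ramp2, Esm1 and Kcne3 were highest in endothelial-like cells or in the cluster with endothelial and pericyte genes, in both libraries. In endothelial-like cells, the ligand gene Apln stood at 258 CPM [249, 268] in the Foxq1iECKO library and 293 CPM [285, 301] in the Foxq1flox/flox library. The cluster with endothelial and pericyte genes had an Apln level of 309 CPM [297, 321] in the Foxq1iECKO library and 345 CPM [329, 362] in the Foxq1flox/flox library. Every other named class with at least 200 cells per library stayed below 10 CPM for Apln. Neuron-like cells gave 7.78 CPM in the Foxq1iECKO library and 5.62 CPM in the Foxq1flox/flox library. In endothelial-like cells Adm was at 57.4 CPM [52.9, 62.2] in the Foxq1iECKO library and 54.5 CPM [51.0, 58.1] in the Foxq1flox/flox library. It was higher in the cluster with endothelial and pericyte genes, at 106 CPM [98.7, 113] in the Foxq1iECKO library and 95.3 CPM [86.8, 104] in the Foxq1flox/flox library. Pericyte-like cells had an Adm level of 13.5 CPM in the Foxq1iECKO library and 14.2 CPM in the Foxq1flox/flox library, between these and neuron-like cells (1.84 CPM in the Foxq1iECKO library and 1.40 CPM in the Foxq1flox/flox library).

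The apelin receptor gene followed its ligand across classes, whereas the adrenomedullin receptor gene was found much more widely. In endothelial-like cells Aplnr stood at 86.8 CPM [81.2, 92.6] in the Foxq1iECKO library and 84.6 CPM [80.2, 89.1] in the Foxq1flox/flox library. The cluster with endothelial and pericyte genes had 51.2 CPM in the Foxq1iECKO library and 49.7 CPM in the Foxq1flox/flox library, and every other class with at least 200 cells per library was below 5 CPM. Calcrl in endothelial-like cells was at 115 CPM [109, 122] in the Foxq1iECKO library and 132 CPM [127, 138] in the Foxq1flox/flox library. Lymphatic endothelial-like cells, in which adrenomedullin signalling is needed for vessel growth in the mouse, had about the same Calcrl level, 114 CPM [101, 127] in the Foxq1iECKO library and 112 CPM [101, 125] in the Foxq1flox/flox library. Pericyte-like cells had a Calcrl level of 82.0 CPM in the Foxq1iECKO library and 78.6 CPM in the Foxq1flox/flox library. In leukocyte-like cells it was 63.3 CPM in the Foxq1iECKO library and 67.4 CPM in the Foxq1flox/flox library. Fibroblast-like cells (26.9 CPM in the Foxq1iECKO library and 30.6 CPM in the Foxq1flox/flox library) and macrophage-like cells (23.5 CPM in the Foxq1iECKO library and 22.0 CPM in the Foxq1flox/flox library) were lower, and neuron-like cells were lower still (7.98 CPM in the Foxq1iECKO library and 9.97 CPM in the Foxq1flox/flox library). At an equal depth of 2000 UMIs per cell, Calcrl was detected in 21.3% of Foxq1iECKO and 24.1% of Foxq1flox/flox endothelial-like cells. The same share was 1.71% of Foxq1iECKO and 1.74% of Foxq1flox/flox neuron-like cells, taken here as the background of free RNA. Median depth before thinning was 4144 UMIs in the Foxq1iECKO library and 4471 UMIs in the Foxq1flox/flox library for endothelial-like cells and 3208 UMIs in the Foxq1iECKO library and 3254 UMIs in the Foxq1flox/flox library for neuron-like cells.

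The partners that turn Calcrl into an adrenomedullin receptor were split between blood vessel and blood cells. In endothelial-like cells Ramp2 stood at 75.8 CPM [70.6, 81.2] in the Foxq1iECKO library and 102 CPM [97.6, 107] in the Foxq1flox/flox library. Lymphatic endothelial-like cells had a Ramp2 level of 38.3 CPM in the Foxq1iECKO library and 44.2 CPM in the Foxq1flox/flox library. In pericyte-like cells it was 18.3 CPM in the Foxq1iECKO library and 20.1 CPM in the Foxq1flox/flox library, so Ramp2 was foremost endothelial. Ramp3 was low in endothelial-like cells, at 4.97 CPM [3.72, 6.52] in the Foxq1iECKO library and 5.09 CPM [4.07, 6.28] in the Foxq1flox/flox library, and was highest in leukocyte-like cells, at 14.2 CPM [10.3, 19.2] in the Foxq1iECKO library and 24.1 CPM [19.6, 29.4] in the Foxq1flox/flox library. Within these, the cluster led by H2-Aa, Trbc2 and S100a8 had a Ramp3 level of 17.6 CPM in the Foxq1iECKO library and 33.3 CPM in the Foxq1flox/flox library. The mast cell genes Cpa3 and Cma1 led the other leukocyte cluster, where Ramp3 was at 11.9 CPM in the Foxq1iECKO library and 15.1 CPM in the Foxq1flox/flox library. After thinning to 2000 UMIs, a Ramp3 UMI was seen in 3.36% of Foxq1iECKO and 5.75% of Foxq1flox/flox leukocyte-like cells. Endothelial-like cells gave 0.746% in the Foxq1iECKO library and 0.825% in the Foxq1flox/flox library. Neuron-like cells gave 0.180% in the Foxq1iECKO library and 0.112% in the Foxq1flox/flox library, so Ramp3 was rare in every class at this depth and least rare in leukocyte-like cells among these 3.

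Of the tip cell markers, Esm1 was endothelial and Kcne3 was shared with a blood cell cluster. Esm1 encodes endocan, a secreted proteoglycan of endothelial cells that VEGF induces. In endothelial-like cells it stood at 57.7 CPM [53.2, 62.5] in the Foxq1iECKO library and 72.5 CPM [68.5, 76.7] in the Foxq1flox/flox library. In the cluster with endothelial and pericyte genes it was at 30.9 CPM [27.2, 35.0] in the Foxq1iECKO library and 53.8 CPM [47.5, 60.7] in the Foxq1flox/flox library. No other named class with at least 200 cells per library exceeded 6 CPM of Esm1. Kcne3 encodes an accessory subunit of voltage-gated potassium channels, and in endothelial-like cells it stood at 32.0 CPM [28.6, 35.6] in the Foxq1iECKO library and 40.6 CPM [37.6, 43.7] in the Foxq1flox/flox library. The leukocyte cluster led by Cpa3 and Cma1 had a Kcne3 level of 20.4 CPM in the Foxq1iECKO library and 24.4 CPM in the Foxq1flox/flox library. Lymphatic endothelial-like cells had 4.30 CPM in the Foxq1iECKO library and 13.6 CPM in the Foxq1flox/flox library. When the 12 classes were ordered by level, most neighbours were not apart by the interval of their ratio. For Apln this held for 9 of 11 neighbouring pairs in the Foxq1iECKO library and 9 of 11 in the Foxq1flox/flox library. For Calcrl 7 of 11 pairs were not apart in the Foxq1iECKO library and 6 of 11 in the Foxq1flox/flox library. For Ramp2 the counts were 6 of 11 in the Foxq1iECKO library and 8 of 11 in the Foxq1flox/flox library.

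**Figure D1:**
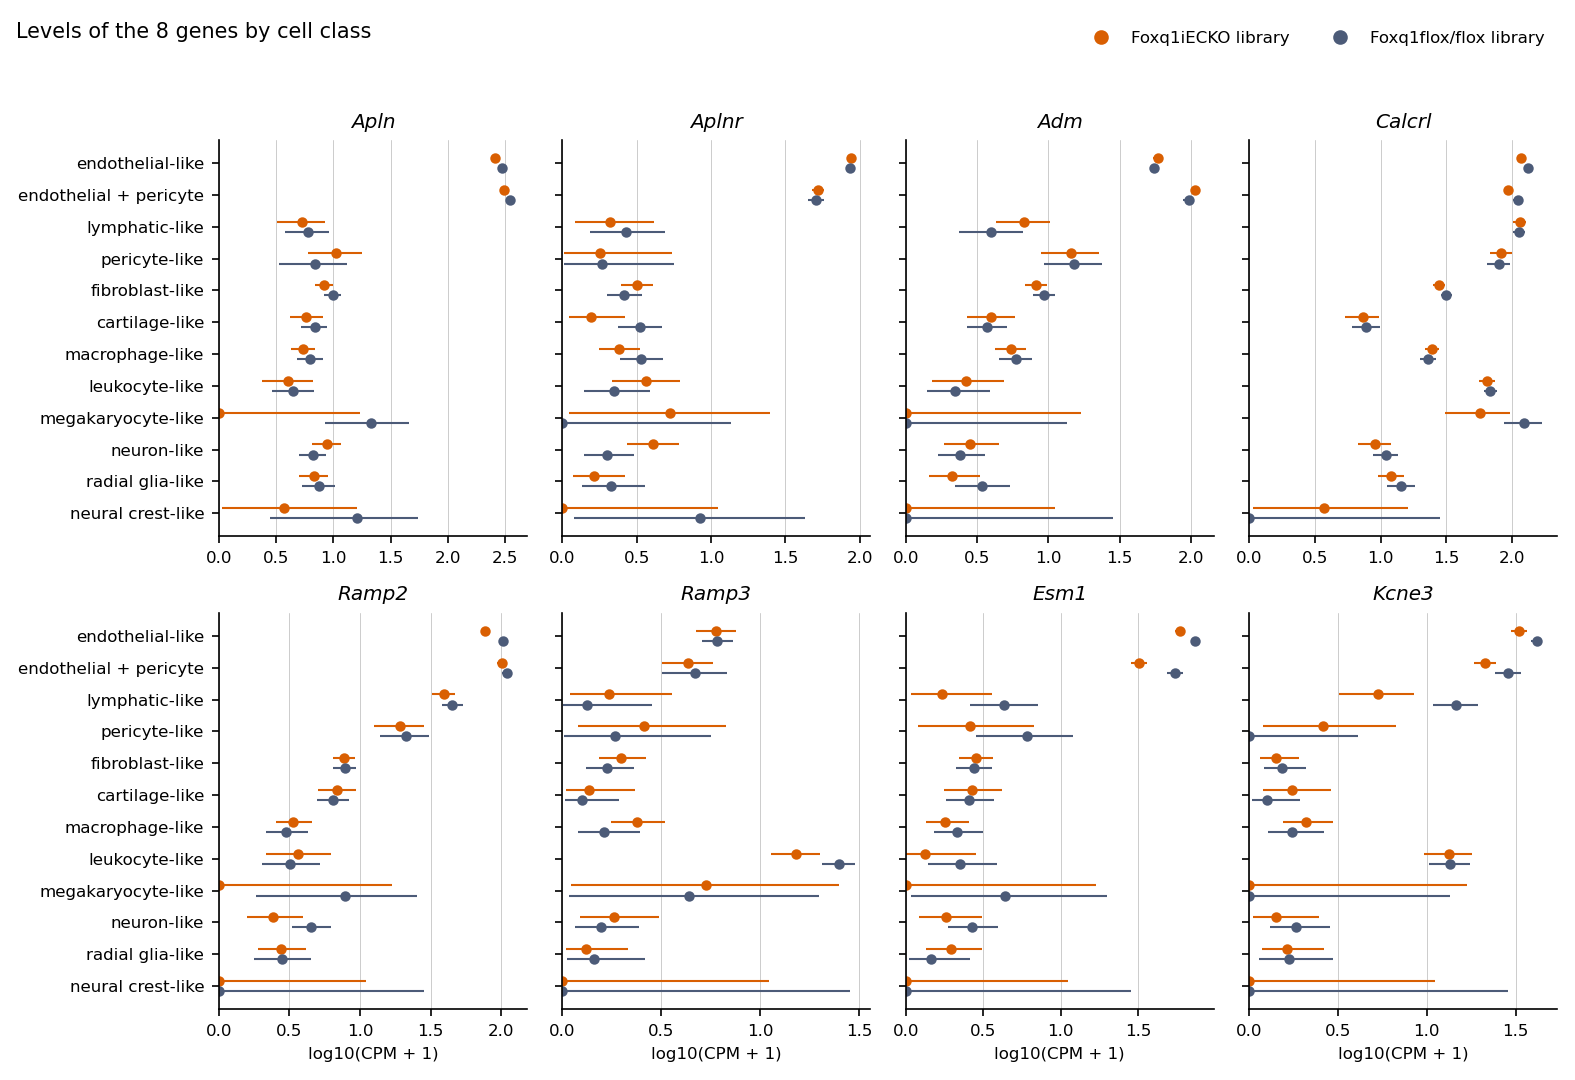
Level of each of the 8 genes in every cell class, as log10(CPM + 1), in the Foxq1iECKO library (orange) and the Foxq1flox/flox library (blue); points are the summed level and bars the 95% counting interval. Endothelial-like cells and the cluster with endothelial and pericyte genes hold the highest points except for Ramp3, which peaks in leukocyte-like cells. Calcrl is nearly as high in lymphatic endothelial-like cells and is seen in many classes.

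The endothelial-like cells split into 8 subclusters, in which each ligand was highest in a barrier-like subcluster. Subclusters 1 and 6 were called barrier-like from markers such as Mfsd2a, Slco1c1 and Slc38a5, and subcluster 5 was led by cell cycle genes. The others stayed unnamed and are given by their leading genes: Iigp1 (subcluster 2), Gja5 and Igfbp3 (3), Zfp791 and Airn (4), Egr1 and Fos (7), and haemoglobin genes (8). Barrier-like cells made up 24.1% of Foxq1iECKO and 34.6% of Foxq1flox/flox endothelial-like cells. Foxq1 itself was among the leading genes of subcluster 1, so the shares of barrier-like cells are given as a description of the clustering.

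Apln was highest in subcluster 1, at 476 CPM [441, 513] in the Foxq1iECKO library and 460.0 CPM [442, 479] in the Foxq1flox/flox library. Its lowest level was in the Iigp1-led subcluster 2, at 136 CPM [124, 148] in the Foxq1iECKO library and 164 CPM [152, 177] in the Foxq1flox/flox library. The Gja5-led subcluster 3 (185 CPM in the Foxq1iECKO library and 184 CPM in the Foxq1flox/flox library) and the haemoglobin-led subcluster 8 (187 CPM in the Foxq1iECKO library and 183 CPM in the Foxq1flox/flox library) were also low. Both libraries therefore showed high Apln in barrier-like, cycling-like, Zfp791-led and Egr1-led cells and low Apln in the remaining subclusters. Adm peaked in the other barrier-like subcluster, number 6, at 218 CPM [178, 263] in the Foxq1iECKO library and 169.9 CPM [141, 203] in the Foxq1flox/flox library. The next level of Adm, in cycling-like cells, was 98.1 CPM in the Foxq1iECKO library and 93.7 CPM in the Foxq1flox/flox library. The ligands thus had their maxima in different barrier-like subclusters, and neither stood out in both. Over barrier-like cells together, log2 ratios to the other endothelial subclusters were 1.08 (Foxq1iECKO) and 1.06 (Foxq1flox/flox) for Apln and 1.36 and 0.83 for Adm. In subcluster 6 Apln was at 384 CPM (Foxq1iECKO) and 323 CPM (Foxq1flox/flox), near its level in cycling-like cells (412 and 320 CPM). In subcluster 1 Adm was at 79.7 and 63.5 CPM in the same order of libraries, below cycling-like cells.

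Aplnr did not share the order of its ligand, whereas Calcrl and Ramp2 peaked in the same one of the 8 subclusters as Adm. Aplnr was highest in the low-depth Zfp791-led subcluster 4 and in cycling-like cells. In subcluster 4 it stood at 225 CPM [186, 269.8] in the Foxq1iECKO library and 202 CPM [169.8, 239] in the Foxq1flox/flox library. In cycling-like cells it was at 163 CPM [136, 195] in the Foxq1iECKO library and 208 CPM [183, 236] in the Foxq1flox/flox library. The Gja5-led subcluster 3 had the lowest level, 38.7 CPM [30.8, 48.0] in the Foxq1iECKO library and 41.0 CPM [32.8, 50.7] in the Foxq1flox/flox library. Calcrl and Ramp2, which together form an adrenomedullin receptor, were both highest in barrier-like subcluster 6. There Calcrl stood at 246 CPM [204, 295] in the Foxq1iECKO library and 319 CPM [278, 363] in the Foxq1flox/flox library. In the same cells Ramp2 stood at 207 CPM [169, 252] in the Foxq1iECKO library and 249 CPM [214, 289] in the Foxq1flox/flox library. Part of subcluster 6, 40 Foxq1iECKO and 48 Foxq1flox/flox cells, belonged to the arterial-like cells of a finer split. Without them Calcrl was at 184 CPM in the Foxq1iECKO library and 217 CPM in the Foxq1flox/flox library in subcluster 6, and subcluster 4 without its arterial-like cells had 165 CPM in the Foxq1iECKO library and 222 CPM in the Foxq1flox/flox library. Subcluster 6 was then the highest for Calcrl in the Foxq1iECKO library and subcluster 4 in the Foxq1flox/flox library, with intervals that overlapped in both. Adm (253 CPM in the Foxq1iECKO library and 203 CPM in the Foxq1flox/flox library) and Ramp2 (199.6 CPM in the Foxq1iECKO library and 244 CPM in the Foxq1flox/flox library) stayed highest in subcluster 6 without the arterial-like cells. Ramp3 ranged between 0 and 11.8 CPM over the subclusters of the Foxq1iECKO library and between 0.867 and 7.64 CPM over those of the Foxq1flox/flox library. In each library all 7 neighbouring pairs were not apart by the interval of their ratio.

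Esm1 had its own distribution. It was highest in the Gja5-led subcluster 3, at 139.7 CPM [124, 157] in the Foxq1iECKO library and 147 CPM [131, 164] in the Foxq1flox/flox library, and was among that subcluster's 10 leading genes. Subcluster 3 had 2 raised arterial markers and 2 raised markers of a tip cell list without the 8 genes, too few for a name. Arterial-like cells of that split made up 122 Foxq1iECKO and 147 Foxq1flox/flox cells of subcluster 3. Without them Esm1 was at 71.2 CPM in the Foxq1iECKO library and 51.9 CPM in the Foxq1flox/flox library there, and in the Foxq1flox/flox library the Egr1-led subcluster 7 was then higher (94.6 CPM). Cycling-like cells had the lowest Esm1 level, 6.54 CPM [2.12, 15.3] in the Foxq1iECKO library and 14.7 CPM [8.59, 23.6] in the Foxq1flox/flox library. The subcluster with the most Esm1 had the least Aplnr in both libraries, but this contrast did not hold in every subcluster. Subcluster 7, second for Esm1, had Aplnr at 109 CPM in the Foxq1iECKO library and 114 CPM in the Foxq1flox/flox library. Without its arterial-like cells, subcluster 3 had Aplnr at 58.2 CPM (Foxq1iECKO) and 68.3 CPM (Foxq1flox/flox). That was near subcluster 2 (64.3 and 61.7 CPM), where Esm1 was lower. The Pearson correlation of Esm1 with Aplnr over the 8 subclusters was -0.71, and that of Adm with Ramp2 was 0.94, on mean log2(CPM + 5) profiles. These points share libraries and differ in depth, and the correlations are given as descriptions. Kcne3 had no clear peak: its maximum was in the Egr1-led subcluster 7, at 49.9 CPM [35.3, 68.5] in the Foxq1iECKO library and 77.4 CPM [62.7, 94.7] in the Foxq1flox/flox library. By the interval of their ratio, most neighbouring levels were not apart (7 of 7 pairs in the Foxq1iECKO library and 6 of 7 in the Foxq1flox/flox library). The order of subclusters was alike in the libraries for Aplnr (Spearman's rho 0.95), Esm1 (0.93) and Calcrl (0.90), and least alike for Kcne3 (0.29).

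**Figure D2:**
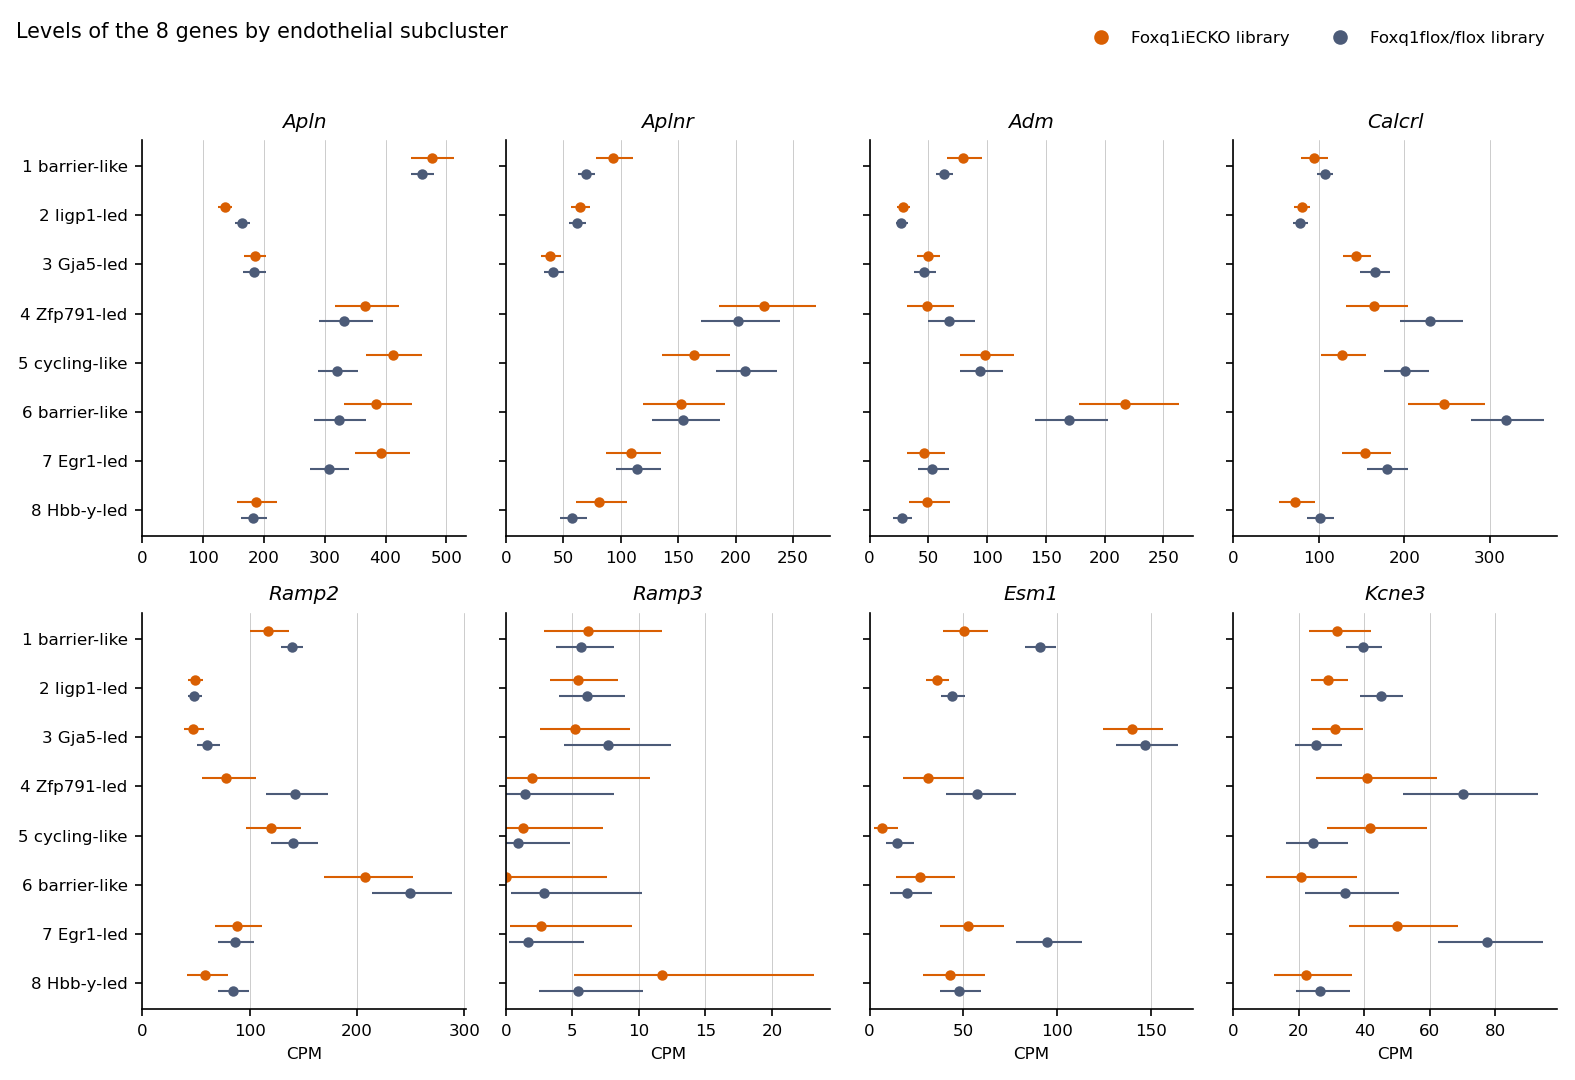
Level of each of the 8 genes in the endothelial subclusters, in CPM, in the Foxq1iECKO library (orange) and the Foxq1flox/flox library (blue), with 95% counting intervals as bars. Apln is highest in subcluster 1, Adm, Calcrl and Ramp2 in subcluster 6, and Esm1 in subcluster 3, in both libraries.

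A finer split into 17 subclusters separated cells with arterial markers, in which Aplnr was low and Esm1 and Calcrl were high on the whole. These arterial-like cells came from 3 fine subclusters and numbered 194 in the Foxq1iECKO library and 289 in the Foxq1flox/flox library. In them Aplnr stood at 5.50 CPM [2.02, 11.98] in the Foxq1iECKO library and 11.6 CPM [7.18, 17.7] in the Foxq1flox/flox library. In the other endothelial-like cells it was at 96.2 CPM in the Foxq1iECKO library and 93.3 CPM in the Foxq1flox/flox library. Esm1 in arterial-like cells was at 208 CPM [182, 237] in the Foxq1iECKO library and 186 CPM [166, 206] in the Foxq1flox/flox library. In the other endothelial-like cells Esm1 was at 40.2 CPM in the Foxq1iECKO library and 59.0 CPM in the Foxq1flox/flox library, so the log2 ratio of arterial-like over other cells was 2.37 in the Foxq1iECKO library and 1.65 in the Foxq1flox/flox library. Calcrl had log2 ratios of 1.32 in the Foxq1iECKO library and 1.29 in the Foxq1flox/flox library in the same comparison. For Apln they were -0.67 in the Foxq1iECKO library and -0.81 in the Foxq1flox/flox library. Arterial-like cells were not uniform, and Esm1 and Calcrl were highest in different fine subclusters. Calcrl was highest of all 17 in fine subcluster 12, at 719 CPM in the Foxq1iECKO library and 893 CPM in the Foxq1flox/flox library. In the same cells Apln was at 40.3 CPM in the Foxq1iECKO library and 4.83 CPM in the Foxq1flox/flox library and Adm at 47.1 CPM in the Foxq1iECKO library and 19.3 CPM in the Foxq1flox/flox library. Their Esm1 level was 80.7 CPM [41.7, 141] in the Foxq1iECKO library and 43.4 CPM [19.9, 82.5] in the Foxq1flox/flox library, so the Foxq1flox/flox value lay below that of the other endothelial-like cells. Esm1 was highest in fine subcluster 9, at 263 CPM in the Foxq1iECKO library and 266 CPM in the Foxq1flox/flox library, where Calcrl was at 118 CPM in the Foxq1iECKO library and 124 CPM in the Foxq1flox/flox library. Fine subcluster 9 had 5 raised arterial markers and also 3 raised tip cell markers from outside the 8 genes. Fine subcluster 14 was second of the 17 for both genes in both libraries, with Esm1 at 126 CPM in the Foxq1iECKO library and 135 CPM in the Foxq1flox/flox library and Calcrl at 341 CPM in the Foxq1iECKO library and 287 CPM in the Foxq1flox/flox library. Apln was lower in arterial-like cells than in the pool of other endothelial-like cells, but fine subcluster 1, led by Iigp1, also had little (113 CPM in the Foxq1iECKO library and 109.7 CPM in the Foxq1flox/flox library). Among the 17, Apln was highest in the barrier-like fine subcluster 7 in the Foxq1iECKO library (669 CPM), followed by cycling-like fine subcluster 10 (632 CPM). In the Foxq1flox/flox library it was highest in the unnamed fine subcluster 17 (960 CPM, 28 cells), followed by fine subcluster 7 (668 CPM). Adm was highest in the barrier-like fine subcluster 4, at 256 CPM in the Foxq1iECKO library and 200.1 CPM in the Foxq1flox/flox library, where Calcrl was at 176 CPM in the Foxq1iECKO library and 212 CPM in the Foxq1flox/flox library.

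Whether the tip cell genes mark the same cells was examined by co-detection among endothelial-like cells thinned to 2000 UMIs each. Thinning kept 1340 Foxq1iECKO cells and 2061 Foxq1flox/flox cells and left out 297 shallower Foxq1iECKO cells and 357 shallower Foxq1flox/flox cells. Median depth in the Foxq1iECKO and Foxq1flox/flox libraries was 1988 and 2126 UMIs in subcluster 4 and 2237 and 2351 UMIs in subcluster 6. In subcluster 2 it was 10121 and 10407 UMIs, so the shares below give shallow subclusters less weight. Apln was detected more often in cells with Kcne3 than in cells without it. An Apln UMI was present in 52.1% [40.04, 63.9] of Foxq1iECKO cells with Kcne3 (38 of 73) and in 49.3% [40.6, 58.0] of such Foxq1flox/flox cells (67 of 136). Cells without Kcne3 had an Apln UMI in 28.3% [25.9, 30.9] of cases in the Foxq1iECKO library and 29.8% [27.7, 31.9] in the Foxq1flox/flox library. The intervals of cells with and without Kcne3 did not overlap in either library. Adm and Apln were linked in the same way: Apln was seen in 42.3% [33.4, 51.5] of Foxq1iECKO and 48.1% [40.6, 55.6] of Foxq1flox/flox cells with Adm. Without Adm the shares with Apln were 28.3% [25.8, 31.0] in the Foxq1iECKO library and 29.4% [27.4, 31.5] in the Foxq1flox/flox library.

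For Esm1 and Apln, the intervals of cells with and without Esm1 overlapped. Apln was present in 35.2% [25.4, 45.9] of Foxq1iECKO cells with Esm1 and 29.2% [26.7, 31.8] of those without it. In the Foxq1flox/flox library the shares were 39.0% [32.1, 46.2] with Esm1 and 30.2% [28.1, 32.4] without it, and here the intervals overlapped only at their ends. Aplnr was rarer in cells with Esm1, with intervals that did not overlap in either library. It was found in 3 of 91 Foxq1iECKO cells with Esm1 (3.30% [0.685, 9.33]) and 16 of 195 such Foxq1flox/flox cells (8.21% [4.76, 13.0]). Among cells without Esm1, Aplnr was found in 18.5% [16.4, 20.8] of Foxq1iECKO and 18.4% [16.7, 20.3] of Foxq1flox/flox cells. Calcrl in cells with Kcne3 was at 13.7% [6.77, 23.8] in the Foxq1iECKO library and 14.0% [8.63, 21.0] in the Foxq1flox/flox library. Cells without Kcne3 had Calcrl in 21.8% [19.5, 24.2] of cases in the Foxq1iECKO library and 24.8% [22.9, 26.8] in the Foxq1flox/flox library, and the intervals were apart only in the Foxq1flox/flox library. Few cells carried several of Apln, Esm1, Kcne3 and Adm at this depth: exactly 2 were seen in 7.54% of Foxq1iECKO and 10.1% of Foxq1flox/flox cells. All 4 were seen in 0.373% of Foxq1iECKO and 0.194% of Foxq1flox/flox cells. The shares expected if the genes fell in cells independently were not computed, so these values do not show low overlap. Cells of 1 library are not replicates, so these shares describe the libraries.

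**Figure D3:**
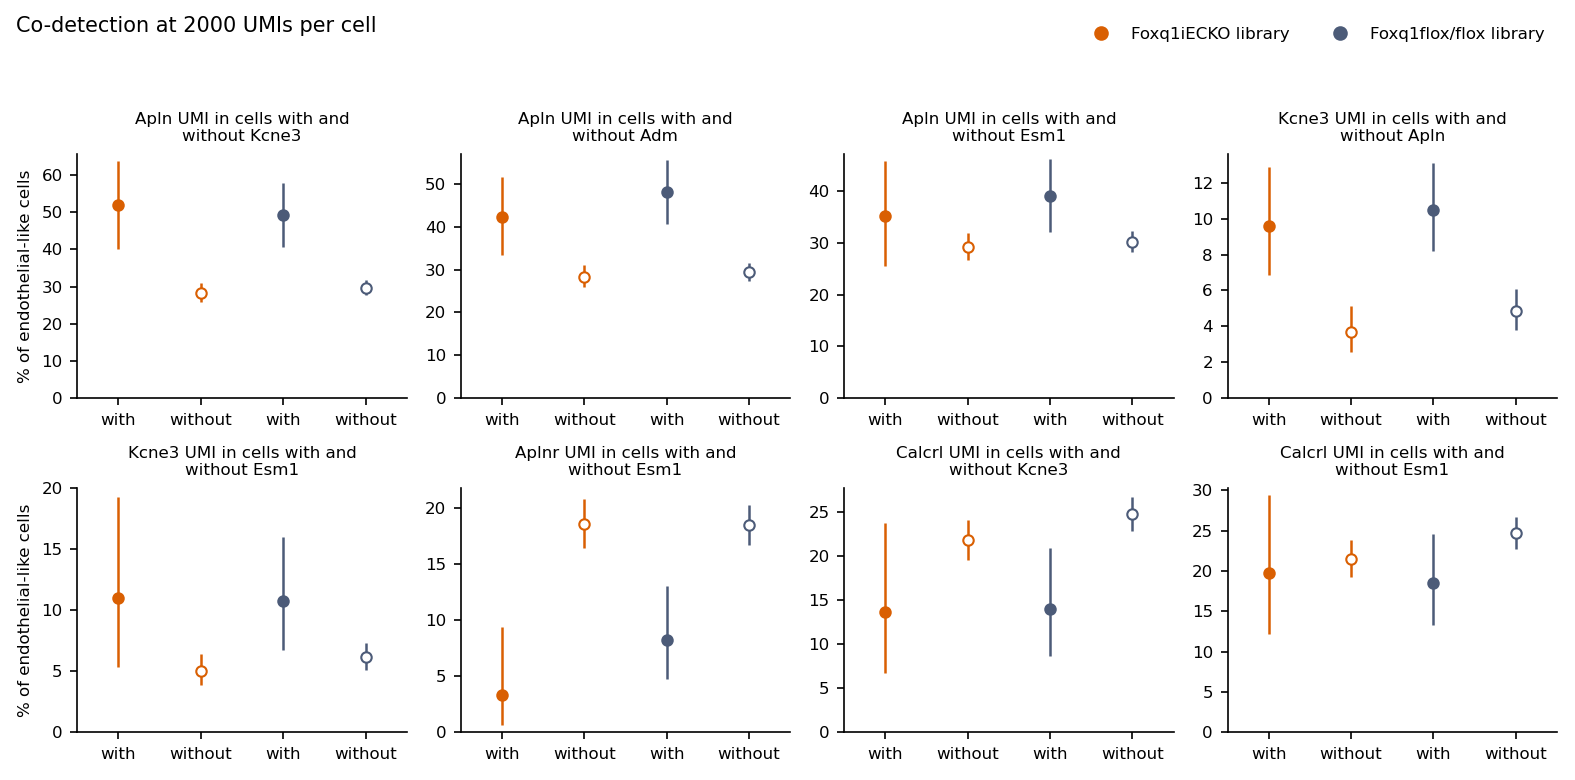
Share of endothelial-like cells, thinned to 2000 UMIs each, with a UMI of one gene among cells with (filled) and without (open) a UMI of another, in the Foxq1iECKO library (orange) and the Foxq1flox/flox library (blue); bars are exact 95% binomial intervals. Apln is more frequent in cells with Kcne3 or Adm than in cells without, and Aplnr is less frequent in cells with Esm1.

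Between the genotypes, no gene of the 8 passed the size rule over all endothelial-like cells. The rule asks for a ratio of at least 1.5 with a counting interval that leaves out 1, among genes with 20 or more CPM in at least 1 library. Of the 8 genes, 7 were tested, since Ramp3 was below that level, and 0 were higher and 0 lower in Foxq1iECKO cells. Over all 6209 genes tested, 0.628% were higher and 0.837% lower by the same rule. The median log2 ratio of Foxq1iECKO over Foxq1flox/flox was -0.20 over the 7 genes and -0.01 over all genes. Differences below the size rule were mostly in 1 direction: 5 of 7 intervals lay wholly below 0 and 0 wholly above it. Of all genes, 20.4% had an interval wholly below 0 and 16.5% wholly above it. The 16 endothelial markers summed to 7506 CPM in the Foxq1iECKO library and 8307 CPM in the Foxq1flox/flox library in these cells. Among these markers, Cdh5 had a log2 ratio of -0.20 [-0.24, -0.17] and Pecam1 of -0.08 [-0.14, -0.02], while Robo4 had 0.16 [0.03, 0.29]. How far the values of the 7 genes follow those of endothelial genes in general was not tested.

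Adm and Aplnr were closest to a log2 ratio of 0, and the interval of Apln lay below 0 and overlapped that of Calcrl. The log2 ratio was -0.18 [-0.25, -0.11] for Apln, 0.07 [-0.08, 0.22] for Adm and 0.04 [-0.08, 0.16] for Aplnr. The adrenomedullin receptor genes were also lower in value in Foxq1iECKO cells, with log2 ratios of -0.20 [-0.30, -0.10] for Calcrl and -0.43 [-0.56, -0.31] for Ramp2. Esm1 (-0.33 [-0.47, -0.19]) and Kcne3 (-0.35 [-0.54, -0.15]) lay between these. Foxq1 had a log2 ratio of -1.59 [-1.67, -1.51] in the same cells. At 2000 UMIs per cell, Ramp2 was detected in 14.5% of Foxq1iECKO and 19.2% of Foxq1flox/flox endothelial-like cells, and Esm1 in 6.79% of Foxq1iECKO and 9.46% of Foxq1flox/flox cells. Without thinning, Ramp2 was detected in 31.3% of Foxq1iECKO and 39.9% of Foxq1flox/flox cells. The unthinned shares of Esm1 were 13.7% in the Foxq1iECKO library and 19.3% in the Foxq1flox/flox library. Neuron-like cells at 2000 UMIs gave 0.0898% in the Foxq1iECKO library and 0.224% in the Foxq1flox/flox library for Esm1, so its share in endothelial-like cells stood well above the background. Under other settings of scaling, cell filter and clustering, Esm1 passed the rule under 1, clusters at resolution 2, with a log2 ratio of -0.65. No other gene of the 8 passed under any of them.

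**Figure D4:**
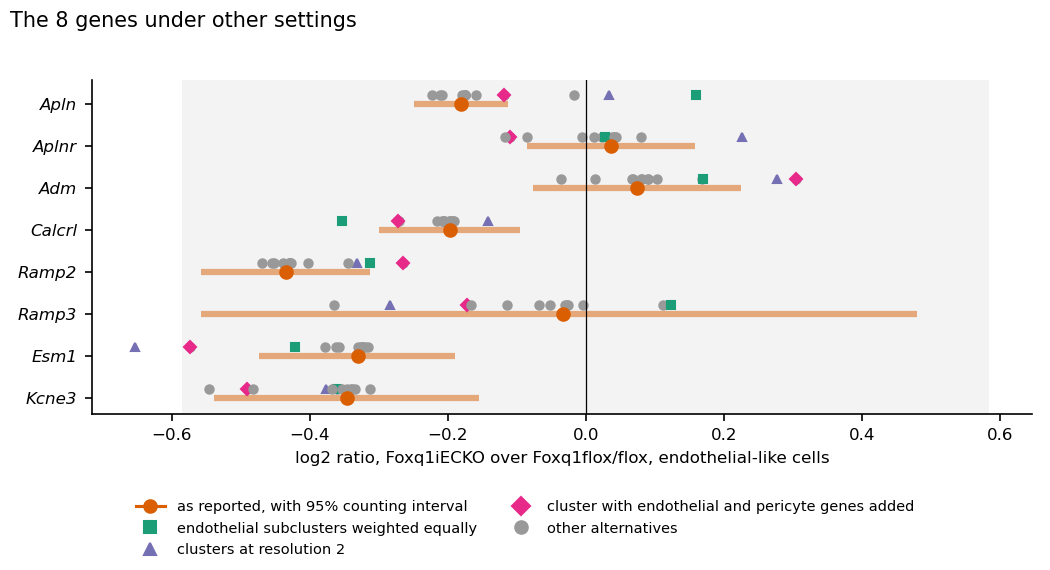
Log2 ratio of Foxq1iECKO over Foxq1flox/flox of the 8 genes in endothelial-like cells as reported (orange, with its 95% counting interval) and under 14 other settings; the grey band marks ratios under 1.5. Esm1 leaves the band under a clustering at resolution 2, and Apln, Aplnr, Adm and Ramp3 each cross 0 under at least 1 setting.

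The barrier-like cells, which had the most Foxq1 among the endothelial subclusters (464 CPM in the Foxq1iECKO library and 973 CPM in the Foxq1flox/flox library), were compared on their own. Esm1 was the 1 gene of 7 tested that passed the size rule there. In barrier-like cells it stood at 44.3 CPM [35.4, 54.7] in the Foxq1iECKO library and 82.2 CPM [75.0, 89.9] in the Foxq1flox/flox library. The log2 ratio was -0.89 [-1.24, -0.56], or 1.86-fold lower in Foxq1iECKO. Over all 6351 genes tested in these cells, 1.02% were lower and 2.83% higher. At 2000 UMIs, Esm1 was detected in 6.38% [3.88, 9.78] of Foxq1iECKO and 10.51% [8.34, 13.0] of Foxq1flox/flox barrier-like cells, and these intervals overlapped. Adm just missed the rule, at 114 CPM [99.7, 130.3] in the Foxq1iECKO library and 76.4 CPM [69.5, 83.8] in the Foxq1flox/flox library, a log2 ratio of 0.58 [0.34, 0.82]. It passed as higher under 3 of 4 other groupings of the cells, with log2 ratios between 0.59 and 0.61. With the cluster of endothelial and pericyte genes added it did not pass, at a log2 ratio of 0.34. Aplnr was at 108 CPM in the Foxq1iECKO library and 80.0 CPM in the Foxq1flox/flox library (log2 ratio 0.43 [0.19, 0.67]), but with that cluster added its log2 ratio was -0.09 [-0.25, 0.07]. Apln had nearly the same level in both libraries, 453 CPM [423, 484] in the Foxq1iECKO library and 443 CPM [426, 461] in the Foxq1flox/flox library, a log2 ratio of 0.03 [-0.08, 0.14]. With the same cluster added, that of Apln was -0.25 [-0.31, -0.18]. Calcrl (-0.0034 [-0.21, 0.20]), Ramp2 (-0.13 [-0.33, 0.07]) and Kcne3 (-0.43 [-0.88, -0.0044]) did not pass. The median log2 ratio of the 7 genes was -0.0034, and that of all genes 0.01.

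The makeup of the barrier-like cells differed between the libraries. Subcluster 6 held 47.2% of Foxq1iECKO and 31.2% of Foxq1flox/flox barrier-like cells. Within subcluster 1 the log2 ratio of Esm1 was -0.86 [-1.23, -0.50], and Esm1 passed the rule there, where 1.6% of all genes were lower. Within subcluster 6, where Esm1 was low, its log2 ratio was 0.43 [-0.78, 1.63]. For Adm the ratio was 0.33 [0.01, 0.64] within subcluster 1 and 0.36 [-0.03, 0.75] within subcluster 6, each smaller than over both together. Depth and the RNA of other cell types in the barrier-like cells also differed. Median depth was 3116.5 UMIs in the Foxq1iECKO library and 4780 UMIs in the Foxq1flox/flox library. Summed pericyte markers in them came to 366 CPM in the Foxq1iECKO library and 289 CPM in the Foxq1flox/flox library, over 13 genes. The 10 erythroid markers summed to 249 CPM in the Foxq1iECKO library and 461 CPM in the Foxq1flox/flox library. For the 12 macrophage markers the sums were 50.4 CPM in the Foxq1iECKO library and 21.8 CPM in the Foxq1flox/flox library. Fibroblast markers (13 genes) summed to 219.7 CPM in the Foxq1iECKO library and 154 CPM in the Foxq1flox/flox library. Neuron markers (14 genes) summed to 134 CPM in the Foxq1iECKO library and 106 CPM in the Foxq1flox/flox library. The part of depth and of RNA from these cell types in the ratios was not tested. Esm1 was at or below 5.02 CPM in pericyte-like cells of both libraries.

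The cluster with endothelial and pericyte genes gave the same call for Esm1. At the levels given above, its log2 ratio there was -0.80 [-1.05, -0.54], beside 0.427% of all genes lower and 0.679% higher. Foxq1 had a log2 ratio of -0.92 [-0.98, -0.86] in these cells. Pericyte-like cells also held Foxq1, and the part of pericyte RNA in this ratio was not tested. Apln (-0.16 [-0.25, -0.07]), Adm (0.15 [-0.02, 0.31]), Calcrl (-0.25 [-0.41, -0.09]) and Kcne3 (-0.45 [-0.79, -0.11]) did not pass the rule. In the remaining endothelial subclusters together, 0 of the 7 tested genes were higher and 0 lower, beside 0.293% higher and 0.26% lower of all genes. Esm1 stood at 60.8 CPM in the Foxq1iECKO library and 67.4 CPM in the Foxq1flox/flox library in these remaining cells (log2 ratio -0.15 [-0.32, 0.01]). Apln was at 214 CPM in the Foxq1iECKO library and 213 CPM in the Foxq1flox/flox library (log2 ratio 0.0039 [-0.09, 0.09]). The log2 ratios of Apln within barrier-like cells and within the others were thus both nearer 0 than that over all endothelial-like cells (-0.18). Single subclusters among the others went both ways for Apln: -0.28 [-0.45, -0.11] in subcluster 2, 0.36 [0.14, 0.58] in subcluster 5 and 0.36 [0.13, 0.58] in subcluster 7, none past the rule. Ramp2 (-0.31 [-0.47, -0.15]), Calcrl (-0.24 [-0.36, -0.12]) and Kcne3 (-0.35 [-0.57, -0.13]) kept intervals below 0 in the others without passing the rule.

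**Figure D5:**
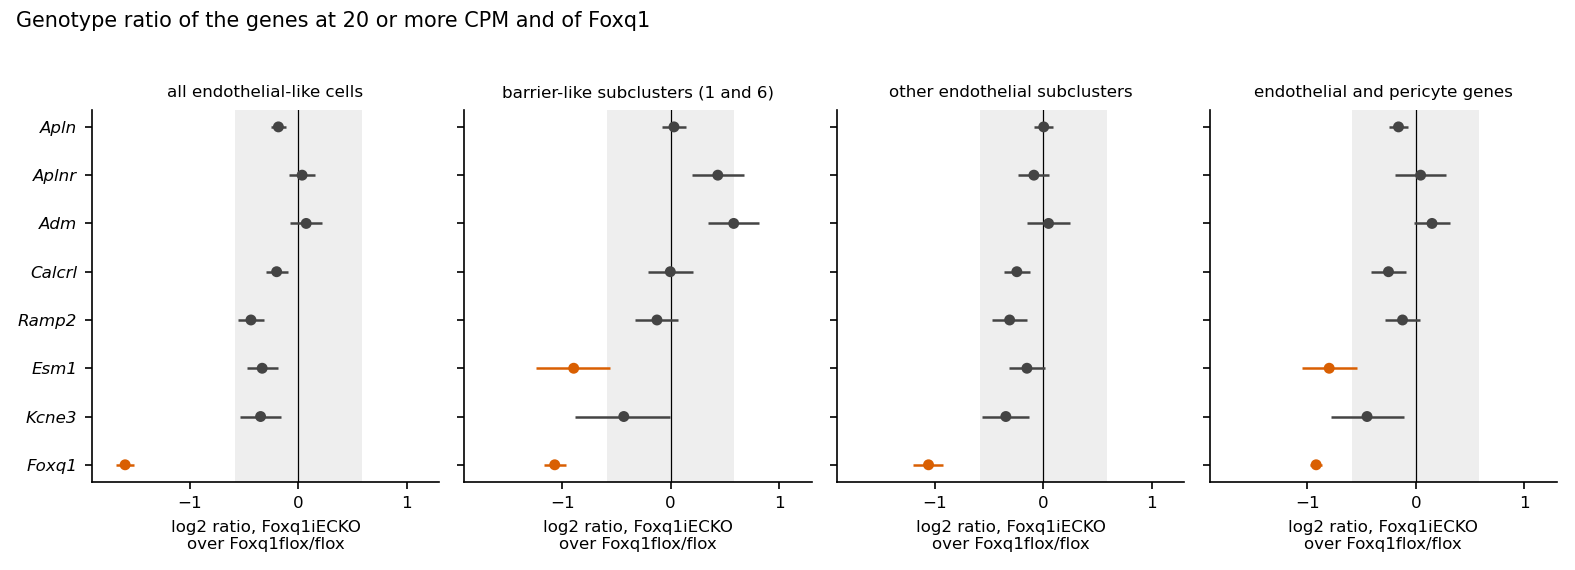
Log2 ratio of Foxq1iECKO over Foxq1flox/flox for the genes at 20 or more CPM and for Foxq1, in 4 sets of cells, with 95% counting intervals; orange points pass the size rule and the grey band marks ratios under 1.5. Esm1 passes in barrier-like cells and in the cluster with endothelial and pericyte genes, and Foxq1 in all 4 sets.

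Single subclusters gave further calls, most of them for the tip cell markers. The share of all genes called higher in Foxq1iECKO cells was 2.35% in subcluster 1, 0.605% in subcluster 2, 1.87% in subcluster 3, 3.81% in subcluster 4, 1.75% in subcluster 5, 3.76% in subcluster 6, 1.9% in subcluster 7 and 2.36% in subcluster 8. The share called lower was 1.6% in subcluster 1, 0.773% in subcluster 2, 2.03% in subcluster 3, 3.49% in subcluster 4, 3.71% in subcluster 5, 2.26% in subcluster 6, 3.78% in subcluster 7 and 3.18% in subcluster 8. Esm1 was lower in Foxq1iECKO cells of the Zfp791-led subcluster 4 (31.0 CPM in the Foxq1iECKO library and 57.1 CPM in the Foxq1flox/flox library, log2 ratio -0.88 [-1.82, -0.01]). It was also lower in the Egr1-led subcluster 7 (52.5 CPM in the Foxq1iECKO library and 94.6 CPM in the Foxq1flox/flox library, log2 ratio -0.85 [-1.40, -0.32]). In the Gja5-led subcluster 3, where Esm1 was highest, its log2 ratio was -0.07 [-0.31, 0.16]. Kcne3 was lower in subclusters 2 (-0.64 [-0.996, -0.29]), 4 (-0.79 [-1.60, -0.02]) and 7 (-0.63 [-1.22, -0.08]). In cycling-like cells it was higher, at 41.8 CPM in the Foxq1iECKO library and 24.3 CPM in the Foxq1flox/flox library (log2 ratio 0.78 [0.01, 1.57]). Kcne3 was also higher in arterial-like cells, at 26.6 CPM [17.8, 38.2] in the Foxq1iECKO library and 14.9 CPM [9.83, 21.7] in the Foxq1flox/flox library, beside 2.96% of all genes higher there. Its direction thus changed between subclusters, and a test of that difference cannot be made with 1 library per genotype.

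The receptor genes passed the rule in few subclusters. Calcrl was lower in Foxq1iECKO cycling-like cells (127 CPM in the Foxq1iECKO library and 201 CPM in the Foxq1flox/flox library, log2 ratio -0.67 [-1.02, -0.32]). Ramp2 was lower in subcluster 4 (77.6 CPM in the Foxq1iECKO library and 142 CPM in the Foxq1flox/flox library, log2 ratio -0.87 [-1.44, -0.33]). Arterial-like cells also had less Ramp2 in the Foxq1iECKO library, at 75.2 CPM [59.8, 93.4] in the Foxq1iECKO library and 120.4 CPM [105, 137] in the Foxq1flox/flox library, a log2 ratio of -0.68 [-1.06, -0.31], beside 3.1% of all genes lower. Adm was higher in the haemoglobin-led subcluster 8 (48.5 CPM in the Foxq1iECKO library and 27.1 CPM in the Foxq1flox/flox library, log2 ratio 0.84 [0.15, 1.52]). Apln and Aplnr passed the rule in none of the 8 subclusters, and neither did they in arterial-like cells, where Aplnr was below 20 CPM.

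Outside the blood endothelium few of the 8 genes reached the level tested, so that 8 comparisons of a gene in a class could be made, and 1 passed the rule. There were 2 each in lymphatic endothelial-like, pericyte-like and leukocyte-like cells, 1 each in fibroblast-like and macrophage-like cells, and 0 in cartilage-like, neuron-like and radial glia-like cells. Calcrl had log2 ratios of 0.02 [-0.21, 0.24] in lymphatic endothelial-like, 0.06 [-0.36, 0.48] in pericyte-like and 0.10 [-0.19, 0.38] in macrophage-like cells. The 1 call was Ramp3 in leukocyte-like cells, lower in Foxq1iECKO with a log2 ratio of -0.76 [-1.31, -0.23] at the levels given above. Of all genes tested per class, the share called higher was 1.12% in lymphatic endothelial-like cells, 2.12% in pericyte-like cells, 0.901% in fibroblast-like cells, 1.1% in cartilage-like cells, 1.98% in macrophage-like cells, 1.25% in leukocyte-like cells, 1.93% in neuron-like cells and 1.11% in radial glia-like cells. The share called lower was 1.55% in lymphatic endothelial-like cells, 3.53% in pericyte-like cells, 0.872% in fibroblast-like cells, 0.948% in cartilage-like cells, 0.328% in macrophage-like cells, 1.87% in leukocyte-like cells, 2.57% in neuron-like cells and 1.2% in radial glia-like cells. Ramp3 was 1 of the 2 genes tested in leukocyte-like cells, too few to set a share against these. Both leukocyte clusters had the smaller Ramp3 value in Foxq1iECKO cells. The cluster led by H2-Aa held 327 Foxq1iECKO and 438 Foxq1flox/flox cells, and the cluster led by Cpa3 held 330 Foxq1iECKO and 359 Foxq1flox/flox cells. Kcne3 in lymphatic endothelial-like cells rested on 12 UMIs in the Foxq1iECKO library and 41 UMIs in the Foxq1flox/flox library and was below the level tested.

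The wider pathways were described with 3 lists of genes at 10 or more CPM in endothelial-like cells. Of 20 other genes of the apelin and adrenomedullin systems, 9 were measured, 0 were higher and 0 lower. Over all 7992 genes at that level, 0.813% were higher and 1.05% lower. The median log2 ratio of the list was 0.05, beside -0.01 for all genes. Pam, the enzyme that amidates adrenomedullin into its active form, stood at 127 CPM in the Foxq1iECKO library and 123 CPM in the Foxq1flox/flox library (log2 ratio 0.05). Gnas, the stimulatory G protein subunit downstream of Calcrl, stood at 6993 CPM in the Foxq1iECKO library and 5486 CPM in the Foxq1flox/flox library (log2 ratio 0.35). The inhibitory subunits through which Aplnr signals did not pass either, with Gnai2 at 285 CPM in the Foxq1iECKO library and 307 CPM in the Foxq1flox/flox library (log2 ratio -0.11) and Gnai3 at 242 CPM in the Foxq1iECKO library and 265 CPM in the Foxq1flox/flox library (log2 ratio -0.13).

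Among 34 other genes listed with tip cells, 33 were measured, 0 were higher and 1 lower, with a median log2 ratio of -0.05. The list is broad: it also holds the Notch pathway genes Jag1, Notch1 and Hey1 and general endothelial genes such as Kdr and Cd34. The gene that passed was Dll4, the Notch ligand by which tip cells restrain their neighbours, at 44.0 CPM in the Foxq1iECKO library and 70.5 CPM in the Foxq1flox/flox library (log2 ratio -0.68 [-0.84, -0.52]). The most abundant genes of this list did not pass. Col4a1, a collagen of the vessel basement membrane, stood at 2384 CPM in the Foxq1iECKO library and 2407 CPM in the Foxq1flox/flox library (log2 ratio -0.01), and the VEGF receptor gene Kdr at 2113 CPM in the Foxq1iECKO library and 2381 CPM in the Foxq1flox/flox library (log2 ratio -0.17). Cd34 stood at 1203 CPM in the Foxq1iECKO library and 1334 CPM in the Foxq1flox/flox library (log2 ratio -0.15) and Marcksl1 at 769.5 CPM in the Foxq1iECKO library and 731 CPM in the Foxq1flox/flox library (log2 ratio 0.08). Restricted to barrier-like cells, 0 of 32 genes of this list were higher and 0 lower, beside 4.02% higher and 1.36% lower of all genes. In the other endothelial subclusters 2 of 33 were lower, beside 0.644% of all genes, and 0 were higher, beside 0.518%. They were Dll4, at 30.1 CPM in the Foxq1iECKO library and 46.1 CPM in the Foxq1flox/flox library (log2 ratio -0.62 [-0.84, -0.40]), and the activin subunit gene Inhbb, at 14.3 CPM in the Foxq1iECKO library and 23.1 CPM in the Foxq1flox/flox library (log2 ratio -0.69 [-1.01, -0.37]). In single subclusters the share of all genes called lay between 1.66% and 3.61% for lower and between 1.18% and 3.52% for higher. Dll4 was lower in subclusters 3 (-0.79), 4 (-1.27) and 7 (-0.73), as log2 ratios. The Notch target Hey1 was lower in subclusters 4 (-0.73) and 5 (-0.79) but higher in subcluster 8 (0.74).

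Hypoxia genes were listed because Adm and Apln respond to low oxygen. Of 20 listed, 16 were measured in endothelial-like cells, 0 were higher and 0 lower, with a median log2 ratio of -0.02. The glycolytic gene Pgk1 stood at 452 CPM in the Foxq1iECKO library and 396 CPM in the Foxq1flox/flox library (log2 ratio 0.19). Slc2a1, the glucose transporter of the blood-brain barrier, was listed here too and stood at 368 CPM in the Foxq1iECKO library and 511 CPM in the Foxq1flox/flox library (log2 ratio -0.48). Ldha was at 353 CPM in the Foxq1iECKO library and 381 CPM in the Foxq1flox/flox library (log2 ratio -0.11) and Ddit4 at 180.2 CPM in the Foxq1iECKO library and 188 CPM in the Foxq1flox/flox library (log2 ratio -0.06). In barrier-like cells 2 of 16 were higher and 0 lower, beside 4.02% higher and 1.36% lower of all genes. These were Ankrd37, at 33.4 CPM in the Foxq1iECKO library and 21.6 CPM in the Foxq1flox/flox library (log2 ratio 0.63 [0.18, 1.08]), and Bnip3, a mitochondrial autophagy gene, at 24.2 CPM in the Foxq1iECKO library and 15.6 CPM in the Foxq1flox/flox library (log2 ratio 0.63 [0.09, 1.16]). Calls in single subclusters went both ways, and the difference between subclusters was not tested. In the Egr1-led subcluster 7, 3 of 17 hypoxia genes were lower, with log2 ratios of -1.36 for Bnip3, -1.19 for Vegfa and -0.70 for Pfkfb3, beside 3.61% of all genes lower. In subcluster 8 Egln3 was lower (-1.06), beside 2.93% of all genes. Vegfa (0.67) and Ankrd37 (0.67) were higher in subcluster 1, beside 3.13% of all genes, and Bnip3 (1.71) was higher in subcluster 6, beside 3.52%. Of the other apelin and adrenomedullin genes, Ackr3, a scavenging receptor for adrenomedullin and for Cxcl12, was higher in the cluster with endothelial and pericyte genes, at 18.3 CPM in the Foxq1iECKO library and 9.65 CPM in the Foxq1flox/flox library (log2 ratio 0.93 [0.44, 1.43]), beside 1.85% of all genes higher and 1.03% lower.

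The genes whose levels across the 20 clusters with at least 50 cells per library were most like each of the 8 were mainly endothelial. Likeness was Pearson's r of log2(CPM + 5), averaged over the libraries, and clusters share libraries and differ in depth. Apln was most like Sema3g (0.99), Nos3 (0.98) and Ly6c1 (0.98). Aplnr was most like Clec14a (0.98), Esm1 (0.98) and Nos3 (0.98), and Esm1 most like Aplnr (0.98), Clec14a (0.97) and Nos3 (0.97). Aplnr and Esm1 were thus each other's neighbours over all clusters, although their correlation over the endothelial subclusters was -0.71. For Adm the nearest genes were Slc9a3r2 (0.95), Flt1 (0.94) and Kctd12b (0.94). For Ramp2 they were Clec1a (0.97), Ptprb (0.96) and Dysf (0.96). Calcrl, with its wider distribution, had lower values: Ece1 (0.92), Rbpms (0.90) and Myl6 (0.90). Ramp3 was nearest to Tmem154 (0.94), F5 (0.92) and Tnfrsf9 (0.91), and Kcne3 to Itga2 (0.94), Cdipt (0.94) and Ctla2a (0.92). Across the endothelial subclusters alone the nearest genes were others, among them Map3k1, Hmgcs1 and Secisbp2 for Apln, Vangl1, Il17rd and Fam13a for Adm and Ptpn12, Anxa5 and Bend3 for Esm1. Fam13a, near Adm in this measure, is the gene that led barrier-like subcluster 6.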

How the data were processed

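Single cells of mouse brain were profiled in 1 library per genotype. The deposited files hold UMI counts per gene and barcode, not normalized. Per the submitters' processing notes, the authors used fastp 0.24.0 and STARsolo 2.7.11b with the mm10 genome, in roles that the notes do not give.

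Cells had to show 500 genes and 1000 UMIs or more, with mitochondrial UMIs no higher than 20%. Doublets called by Scrublet were left out (516 in the Foxq1iECKO library and 534 in the Foxq1flox/flox library). Cells were clustered with scanpy 1.11.5 (Leiden), without the 8 genes among the variable genes, and named from marker lists. Counts were summed per library and cell set and scaled to CPM, with exact Poisson intervals. Ratios of Foxq1iECKO over Foxq1flox/flox carry exact conditional binomial intervals, and shares carry exact Clopper-Pearson intervals at 95%. There was no test, since each genotype has 1 library. The ratio code was tested on simulated data. Alternatives covered scaling (DESeq2 1.42.0 size factors, edgeR 4.0.16 TMM), cell filters, cluster resolution, thinning and thresholds, and some were added after the data were seen, namely leaving out shared barcodes, leaving out the haemoglobin-led subcluster and averaging over cells. Of 31253 gene identifiers, 31184 were found in GENCODE M21, from which positions were read.

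Named genes are the 8 genes, Foxq1, the 3 genes most like each of the 8, and of each list the genes past the size rule and the 4 most abundant. Genes outside this rule, such as Xist, were chosen after their values were seen. The 8 genes and the lists were chosen with earlier results of these data known.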

Additional observations from a re-analysis of the deposited data

Results flagged for a closer look

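Kcne3 was called in opposite directions between the genotypes in different endothelial subclusters. Its log2 ratio of Foxq1iECKO over Foxq1flox/flox was -0.64 in subcluster 2, -0.79 in subcluster 4 and -0.63 in subcluster 7, which are led by Iigp1, Zfp791 and Egr1. In cycling-like cells (subcluster 5) it was 0.78, and in arterial-like cells 0.84. Each of these passed the size rule, and the difference between subclusters was not tested, since there was 1 library per genotype. The lower bound of the interval was 0.01 in cycling-like cells and 0.03 in arterial-like cells, close to 0. The counts behind the ratio in cycling-like cells were 32 UMIs in the Foxq1iECKO library and 28 UMIs in the Foxq1flox/flox library. Arterial-like cells held 29 Kcne3 UMIs in the Foxq1iECKO library and 27 in the Foxq1flox/flox library.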

How the results depend on the processing

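Over all endothelial-like cells, the count of the 8 genes called higher stayed at 0 under every alternative that gave calls. A ratio of 2 or more was among these and could not have added a call, and averaging over cells gave no interval and no call. The count called lower stayed at 0 except with clusters at resolution 2, where it was 1: Esm1, at a log2 ratio of -0.65 in 1052 Foxq1iECKO and 1744 Foxq1flox/flox cells. The cause was not tested. Of all genes, 39 were called higher and 52 lower as reported. These counts were 419 higher and 366 lower with no floor on the level, and 3 higher and 8 lower at a ratio of 2 or more. Over 14 alternatives per gene, log2 ratios ranged between -0.65 and -0.32 for Esm1, -0.55 and -0.31 for Kcne3, -0.47 and -0.26 for Ramp2, and -0.35 and -0.14 for Calcrl, all below 0. Apln took the other sign under 2 of them, at 0.03 with resolution 2 and 0.16 with subclusters weighted equally. Aplnr took the other sign under 5 (-0.12 to 0.23 over all), Adm under 1 (-0.04 to 0.31) and Ramp3 under 2 (-0.37 to 0.12). In barrier-like cells Esm1 passed the rule as lower under each of 4 alternatives applied to these cells after the data were seen, with log2 ratios between -1.06 and -0.88. Adm passed as higher under 3 of the 4 (log2 ratios between 0.59 and 0.61). With the cluster of endothelial and pericyte genes added, Adm did not pass (0.34) and Kcne3 passed as lower (-0.62). Leaving the arterial-like cells out of the subclusters, also chosen after the data were seen, moved the highest level of Calcrl, Esm1 and Aplnr to another subcluster in the Foxq1flox/flox library. No paired analysis was possible because there was 1 library per genotype, and for the same reason no replicate could be left out. Genes near 20 CPM, such as Kcne3 in single subclusters, rest on few UMIs, and Ramp3 was too low in endothelial cells to compare.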

Other observations

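Calca, Apela, Ackr3 and Mme, other genes of the apelin and adrenomedullin systems, were most abundant outside the endothelium. Calca, which encodes calcitonin gene-related peptide, a ligand of Calcrl when it is paired with Ramp1, was at 298 CPM in the Foxq1iECKO library and 292 CPM in the Foxq1flox/flox library in a fibroblast-like cluster in which Cldn11 was a leading gene. It was also at 79.8 CPM in the Foxq1iECKO library and 83.8 CPM in the Foxq1flox/flox library in the leukocyte cluster led by the mast cell genes Cpa3 and Cma1. Calca itself was among the leading genes of the fibroblast-like cluster. Apela, the other ligand of Aplnr, was highest in a fibroblast-like cluster, at 25.9 CPM in the Foxq1iECKO library and 26.3 CPM in the Foxq1flox/flox library, although Aplnr was highest in endothelial cells. Ackr3, the scavenging receptor for adrenomedullin, reached 161 CPM in the Foxq1iECKO library and 148 CPM in the Foxq1flox/flox library in the same Cldn11-led cluster that held Calca. Mme, a membrane peptidase that cleaves many small peptides, was at 481 CPM in the Foxq1iECKO library and 417 CPM in the Foxq1flox/flox library in another fibroblast-like cluster. These levels describe 1 library per genotype and were looked up after the levels of the 8 genes were known.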
